A study of Mus musculus with 7 samples.

Results

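The Ifi200 cluster is a row of interferon-inducible genes on mouse chromosome 1, and 5 of them, Ifi203, Ifi204, Ifi207, Ifi209 and Ifi214, were followed through B cells with and without the transcription factor gene Batf. They were chosen by gene symbol, as the 5 of 752 genes in the deposited table that carry these names. Libraries came from 3 mice labelled Batf KO and 4 wild-type mice (WT), all on the C57BL/6J background. In both groups splenic B cells were taken on magnetic columns and kept for 6 h with 20 µg/mL lipopolysaccharide (LPS, the bacterial ligand of TLR4) and 20 ng/mL interleukin-4 (IL-4). The labels do not describe the Batf allele or the age and sex of the mice. The table lists only genes that passed the authors' threshold for a genotype difference, so a genotype difference was a condition for being in it, and those of the members are given as descriptions. All 5 members were higher in Batf KO in the authors' deposited table (FDR from 0.00118 for Ifi204 to 0.0461 for Ifi207), where 1.95% of the 19734 genes the authors tested were called higher.

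The proteins of this family, called PYHIN, usually pair a pyrin domain, which binds other pyrin domains, with a HIN domain, which binds double-stranded DNA. The best known mouse member, Aim2, senses DNA in the cytosol and builds an inflammasome, while Ifi204 has been linked to DNA sensing through STING. Type I interferon binds the receptor chains Ifnar1 and Ifnar2, and signalling from the receptor acts on the interferon-stimulated response element (ISRE) in the promoters of its target genes. BATF pairs with JUN proteins at AP-1 sites and with IRF4 or IRF8 at composite sites.

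The 3 Batf KO libraries had effective sizes of 23675459 to 30844920 reads, and the 4 WT libraries of 24891094 to 44728937 reads. The targeted gene, Batf, measured 63.4, 70.3 and 65.8 CPM (the count scaled to the effective library size) in Batf KO replicates 1 to 3, against 315, 307, 333 and 322 CPM in WT replicates 1 to 4. The Batf KO level was 20.8% of the WT level, so each library followed its label, with reads of the gene still present. No pair of libraries of 1 genotype agreed within counting noise (chi-square per degree of freedom of 16.4 or more), so each was counted as a sample of its own. This value was 17.9 for WT replicates 1 and 2 and 20.2 for WT replicates 3 and 4. It was 32.5 to 48.4 between a library of the first WT pair and one of the second. The title numbers of the samples are 1138, 1139 and 1141 for Batf KO, 1135 and 1142 for WT replicates 1 and 2, and 1165 and 1170 for WT replicates 3 and 4. The Batf KO numbers lie between those of WT replicates 1 and 2. The labels do not say what the numbers stand for. The members are also given against WT replicates 1 and 2 and against WT replicates 3 and 4.

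The members lie within 423 kb of chromosome 1 (GENCODE M21 on GRCm38, which is mm10). In order along the chromosome they are Ifi214 (ENSMUSG00000070501, 173519717 to 173535957, minus strand), Ifi209 (ENSMUSG00000043263, 173630917 to 173647928, plus strand), Ifi207 (ENSMUSG00000073490, 173723427 to 173741747, minus strand), Ifi204 (ENSMUSG00000073489, 173747293 to 173766943, minus strand) and Ifi203 (ENSMUSG00000039997, 173920407 to 173942672, minus strand). Within 500 kb of the members the annotation holds 56 genes, 37 of them protein-coding, and the table holds no other gene of that window.

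The start-site windows of the members show what the neighbours share in sequence. RefSeq windows (GRCm38.p6, 250 bases before to 50 after a start) were matched by symbol for Ifi214, Ifi209, Ifi207 and Ifi203, and none was matched for Ifi204. Each is printed 5′ to 3′ on its gene's own strand. Capitals mark the ISRE core, searched on both strands as GAAA, any 2 bases and GAAA, and in Ifi209 the 10 bases that differ from it at 1 position. The windows are chr1:173535908-173536207 for Ifi214, chr1:173630609-173630908 for Ifi209, chr1:173741760-173742059 for Ifi207 and chr1:173942443-173942742 for Ifi203.
Ifi214: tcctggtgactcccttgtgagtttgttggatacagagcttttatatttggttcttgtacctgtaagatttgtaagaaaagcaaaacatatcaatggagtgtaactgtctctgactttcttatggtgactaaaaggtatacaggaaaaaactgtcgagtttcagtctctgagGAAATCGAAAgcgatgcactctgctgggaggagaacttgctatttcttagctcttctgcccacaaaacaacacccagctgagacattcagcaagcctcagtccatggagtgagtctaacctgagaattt
Ifi209: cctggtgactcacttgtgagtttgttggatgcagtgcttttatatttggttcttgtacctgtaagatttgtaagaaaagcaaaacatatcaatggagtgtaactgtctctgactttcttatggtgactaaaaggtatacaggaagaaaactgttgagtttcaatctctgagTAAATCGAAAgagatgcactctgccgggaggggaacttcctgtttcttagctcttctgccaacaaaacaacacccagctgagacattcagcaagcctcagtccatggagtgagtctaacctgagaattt
Ifi207: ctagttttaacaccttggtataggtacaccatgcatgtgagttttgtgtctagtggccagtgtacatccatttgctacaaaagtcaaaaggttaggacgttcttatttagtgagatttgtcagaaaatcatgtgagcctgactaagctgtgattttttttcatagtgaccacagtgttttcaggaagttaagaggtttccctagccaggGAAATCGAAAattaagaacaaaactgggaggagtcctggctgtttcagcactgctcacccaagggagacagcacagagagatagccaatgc
Ifi203: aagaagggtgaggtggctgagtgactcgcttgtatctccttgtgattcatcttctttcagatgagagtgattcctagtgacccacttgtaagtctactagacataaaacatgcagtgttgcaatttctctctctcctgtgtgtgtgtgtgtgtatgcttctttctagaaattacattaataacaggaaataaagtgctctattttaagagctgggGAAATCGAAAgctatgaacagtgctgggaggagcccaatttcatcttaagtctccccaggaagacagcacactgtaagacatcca

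The same 10 letters, GAAATCGAAA, stood at -79 to -70 from the start in Ifi214, at -41 to -32 in Ifi207 and at -35 to -26 in the printed Ifi203 window. The Ifi209 window held TAAATCGAAA at -79 to -70, a G1T difference counted from 1 at the 5′ end of the Ifi214 letters. The ISRE core was found in 3.44% of all 32851 RefSeq windows of this length. The exact 10 letters, read from the member windows, were in 16 of them, those member windows included. A second Ifi203 window, chr1:173942623-173942922, held no ISRE core. Its start, farther upstream, is the annotated 5′ end of Ifi203 (173942672). The start of the printed Ifi203 window lies next to the annotated 5′ end of Mndal (173942491), a PYHIN gene on the same strand. Ifi209 and Ifi214 had nearly the same window, with 287 of 299 aligned bases identical (96.0%) and 2 gap bases. The other pairs had 67.9% to 78.0% identity over 94 to 265 aligned bases. Their alignments held 70 to 412 gap bases, which the identity leaves out, so these windows are less alike than the percentages alone show. The AP-1 letters TGANTCA, on either strand, were found in Ifi209 at -245 to -239 and in the printed Ifi203 window at -208 to -202, and 7.81% of all windows held them. In the second Ifi203 window, whose start is the annotated 5′ end, the same letters stood at -28 to -22. A match of letters describes the window and does not show that a factor binds there.

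Ifi209 was the most highly expressed member, and each Batf KO library lay above each WT library. It had 307, 359 and 262 CPM in Batf KO replicates 1 to 3, against 219, 229, 133 and 121 CPM in WT replicates 1 to 4. The WT libraries fell into a higher pair (1 and 2) and a lower pair (3 and 4), and the groups did not overlap. The means were 309 ± 48.4 CPM in Batf KO (SD, n = 3) and 175 ± 56.5 CPM in WT (SD, n = 4), a log2 fold change of 0.82 (SE 0.23) or 1.76-fold.

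Ifi203 showed the same layout. It had 174, 215 and 162 CPM in Batf KO replicates 1 to 3, against 152, 151, 108 and 86.8 CPM in WT replicates 1 to 4. WT replicates 1 and 2 stood just below the lowest Batf KO library, WT replicates 3 and 4 stood well below, and the groups did not overlap. The log2 fold change was 0.56 (SE 0.20), with means of 184 ± 27.8 CPM in Batf KO (SD, n = 3) and 124 ± 32.4 CPM in WT (SD, n = 4).

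Ifi214 followed Ifi203 at about the same distance in each library. Its levels were 84.7, 107 and 83.9 CPM in Batf KO replicates 1 to 3, against 74.7, 78.3, 55.0 and 44.4 CPM in WT replicates 1 to 4. Again WT replicates 1 and 2 were the higher WT pair, and the groups did not overlap. The log2 fold change was 0.54 (SE 0.19), with means of 91.8 ± 12.9 CPM in Batf KO (SD, n = 3) and 63.1 ± 16.1 CPM in WT (SD, n = 4).

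Ifi207 did not follow this order among the WT libraries. It had 23.3, 25.9 and 17.7 CPM in Batf KO replicates 1 to 3, against 8.63, 13.2, 20.9 and 10.9 CPM in WT replicates 1 to 4. WT replicate 3 was the highest WT library and exceeded Batf KO replicate 3, so the groups overlapped, and WT replicate 1 was the lowest. The log2 fold change was 0.73 (SE 0.28), with means of 22.3 ± 4.19 CPM in Batf KO (SD, n = 3) and 13.4 ± 5.33 CPM in WT (SD, n = 4).

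Ifi204 was the least abundant member and had the largest fold change of the 5, except against WT replicates 1 and 2 alone, where Ifi207 did. It was carried by 223, 204 and 125 reads in Batf KO replicates 1 to 3, against 88, 138, 131 and 41 reads in WT replicates 1 to 4. These are 7.23, 7.57 and 5.28 CPM in Batf KO and 2.21, 4.58, 2.93 and 1.65 CPM in WT. WT replicate 2 came closest to the Batf KO libraries, and the groups did not overlap. The log2 fold change was 1.23 (SE 0.31) or 2.35-fold, with means of 6.69 ± 1.24 CPM in Batf KO (SD, n = 3) and 2.84 ± 1.27 CPM in WT (SD, n = 4).

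**Figure D1:**
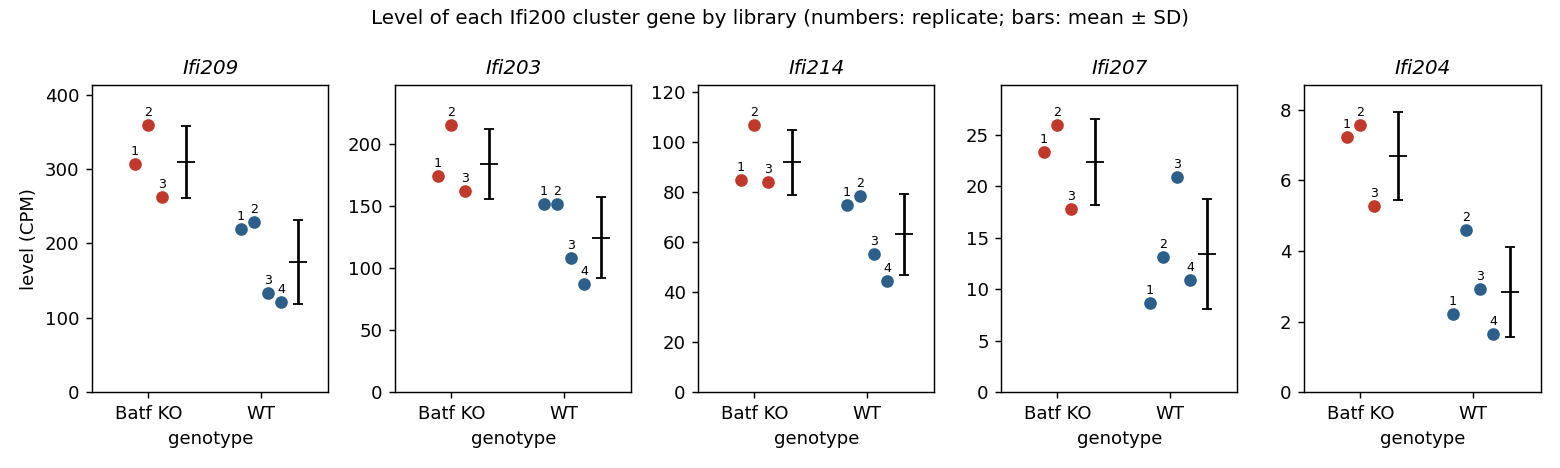
Level in CPM of the 5 genes (a panel each, linear axis from 0), with Batf KO libraries in red and WT libraries in blue, each point numbered by replicate, and the black bars giving mean ± SD (n = 3 and n = 4). The groups are separate for Ifi209, Ifi203, Ifi214 and Ifi204, and WT replicate 3 reaches 20.9 CPM for Ifi207.

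All 5 members were higher in Batf KO in edgeR's quasi-likelihood test of the counts, with adjusted p from 0.00476 (Ifi204) to 0.0285 (Ifi207) over 667 fitted genes, where 50.8% of the fitted genes were called higher. These were all 339 fitted genes that were higher, and the other 328 were lower. The call repeats the selection of the table and is no evidence of its own. Adjustment was then made over the 19734 genes the authors tested, where genes not fitted count as p = 1. These include 85 genes of the table below the filter of a mean of 1 CPM. On this scale 0 of 5 members passed in edgeR (adjusted p from 0.141 for Ifi204 to 0.842 for Ifi207). All 5 had an unadjusted edgeR p under 0.05, as had all 339 fitted genes that were higher. The selection of the table all but fixed that count in advance. Of those 19734 genes, 134 (0.679%) were called higher on this scale, all of them among the 339. DESeq2 adjusted in the same way passed 2 of 5, Ifi204 (adjusted p = 0.0120) and Ifi209 (adjusted p = 0.0136), where 1.28% of genes were called higher, and limma on log2(CPM + 0.5) passed 0 of 5 (0.684% called higher). Without Batf KO replicate 2, 2 of 5 members passed over the fitted genes in edgeR, Ifi204 and Ifi209 (322 of 669 genes, or 48.1%, called higher). Without WT replicate 3, 3 of 5 passed (333 of 669 genes, or 49.8%, called higher), with Ifi203 and Ifi214 missing. The median log2 fold change of the 5 members was 0.73, beside 0.59 over the fitted genes that were higher in Batf KO and 0.30 over all fitted genes. Each Batf KO library was above each WT library for 4 of 5 members, and for 317 of the 667 fitted genes (47.5%). Only the 339 higher genes could show this layout, so most of them had it. In bulk RNA, fewer cells of a type and less RNA per cell cannot be told apart.

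The size of the genotype difference depended on which WT libraries it was measured against. Against WT replicates 1 and 2 the log2 fold change was 0.47 (SE 0.13) for Ifi209, 0.28 (SE 0.12) for Ifi203 and 0.26 (SE 0.12) for Ifi214. Against WT replicates 3 and 4 it was 1.29 (SE 0.13), 0.92 (SE 0.14) and 0.88 (SE 0.14) for the same genes. Ifi207 went the other way, with 1.04 (SE 0.24) against WT replicates 1 and 2 and 0.48 (SE 0.27) against WT replicates 3 and 4. Ifi204 had 0.996 (SE 0.34) against WT replicates 1 and 2 and 1.52 (SE 0.29) against WT replicates 3 and 4. With WT replicates 1 and 2 alone, 3 of 5 members passed in edgeR over the fitted genes (45.9% of them called higher), the exceptions being Ifi203 (adjusted p = 0.0646) and Ifi214 (adjusted p = 0.0718). With WT replicates 3 and 4 alone, 4 of 5 passed (50.7% called higher), the exception being Ifi207 (adjusted p = 0.112). The 2 WT pairs were chosen for this comparison after the data were seen, and the difference between them was not tested.

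**Figure D2:**
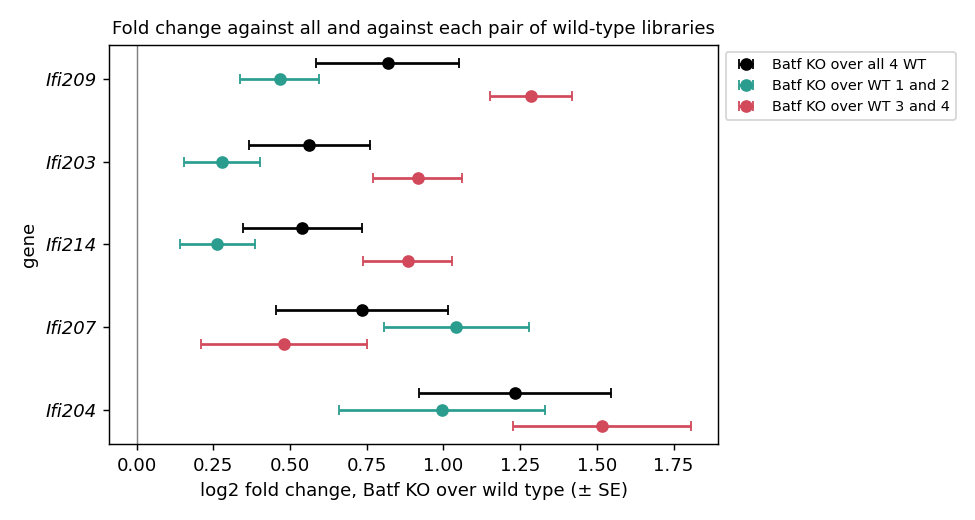
Log2 fold change of Batf KO over wild type with its SE (horizontal axis) for each gene, against all 4 WT libraries (black), WT replicates 1 and 2 (green) and WT replicates 3 and 4 (red). Ifi209, Ifi203, Ifi214 and Ifi204 have the larger value against WT replicates 3 and 4, and Ifi207 has it against WT replicates 1 and 2 (1.04 against 0.48).

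Ifi203 and Ifi214 kept nearly the same ratio in all 7 libraries. The CPM of Ifi203 was 2.05, 2.02 and 1.93 times that of Ifi214 in Batf KO replicates 1 to 3, against 2.03, 1.93, 1.96 and 1.96 times in WT replicates 1 to 4. No run of 50 bases was shared between their annotated transcripts. Ifi209 followed both of them, but with a larger range. Its ratio to Ifi214 was 3.62, 3.37 and 3.13 in Batf KO, against 2.93, 2.93, 2.42 and 2.72 in WT, so each Batf KO library lay above each WT library.

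The ratio of Ifi209 to Ifi207 showed how far Ifi207 departs. It was 13.2, 13.8 and 14.8 in Batf KO replicates 1 to 3, against 25.4, 17.4, 6.37 and 11.1 in WT replicates 1 to 4. The Batf KO libraries lay close together inside a wide WT range. The ratio of Ifi204 to Ifi214 was 0.0853, 0.0710 and 0.0629 in Batf KO, against 0.0296, 0.0585, 0.0532 and 0.0371 in WT, with no overlap.

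**Figure D3:**
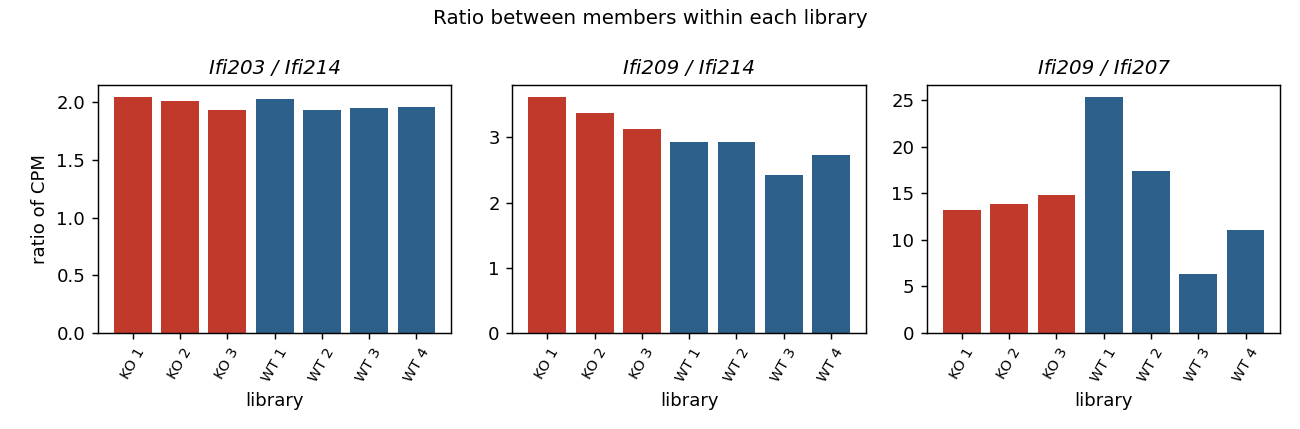
Ratio of the CPM of 2 members within each library (bars from 0, Batf KO in red, WT in blue). Ifi203 over Ifi214 stays between 1.93 and 2.05, Ifi209 over Ifi214 is higher in each Batf KO library, and Ifi209 over Ifi207 runs from 6.37 to 25.4 among WT libraries.

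Whether members differ in their fold change was tested on these within-library ratios, which cancel what all members share in a library. The 35 splits allow no p below 0.0286, so at least 6 pairs would have to sit at that smallest p for any to pass, and a pair that differs alone could not. Of the 10 pairs, 0 passed an exact two-sided permutation test after Benjamini-Hochberg adjustment over the pairs, and 1 had an unadjusted p under 0.05. That pair was Ifi209 and Ifi214, with a log2 fold change larger by 0.30 (SE 0.09) in Ifi209 (exact permutation p = 0.0286, adjusted p = 0.214). Ifi209 exceeded Ifi203 by 0.27 (SE 0.07), with an exact permutation p of 0.0571 and an adjusted p of 0.214. Ifi204 exceeded Ifi214 by 0.60 (SE 0.23) and Ifi203 by 0.58 (SE 0.23), each with an exact permutation p of 0.0857 and an adjusted p of 0.214. The smallest difference was that between Ifi203 and Ifi214, at 0.02 (SE 0.03) with an exact permutation p of 0.371 and an adjusted p of 0.571. The other 5 pairs differed by 0.09 to 0.39, with exact permutation p from 0.343 to 0.857.

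Among the Batf KO libraries the 5 genes moved together. Replicate 2 was the highest, replicate 1 the middle and replicate 3 the lowest for each of the 5, an order that 19.0% of the fitted genes had, and 26.3% of those called higher in Batf KO. With TMM scaling from the table in place of the deposited sizes, 4 of 5 kept it, and in Ifi214 replicates 1 and 3 changed places. The highest Batf KO library exceeded the lowest by 1.27-fold (Ifi214) to 1.46-fold (Ifi207).

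Among the WT libraries the members split. Ifi209, Ifi203 and Ifi214 each had replicates 1 and 2 above replicates 3 and 4, as did 23.4% of the fitted genes, and each had replicate 4 lowest, as did 28.6% of the fitted genes and 39.8% of those called higher in Batf KO. Ifi204 had replicate 2 highest and replicate 4 lowest, with replicate 3 above replicate 1. Ifi207 ran from replicate 3 at the top to replicate 1 at the bottom. The highest WT library exceeded the lowest by 1.75-fold (Ifi203) to 2.78-fold (Ifi204).

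Over the deviations of the 7 libraries from their own genotype mean of log2(CPM + 0.5), Ifi203, Ifi209 and Ifi214 had a Pearson r of 0.96 to 0.99 with each other (Spearman rho 0.96 to 1). Ifi207 had -0.10 with Ifi203, -0.22 with Ifi209 and -0.09 with Ifi214 (rho -0.29, -0.18 and -0.18), and 0.51 with Ifi204 (rho 0.54). Ifi204 had 0.63 to 0.68 with the trio (rho 0.57 to 0.71). These are descriptions over 7 points that share their libraries and scaling.

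**Figure D4:**
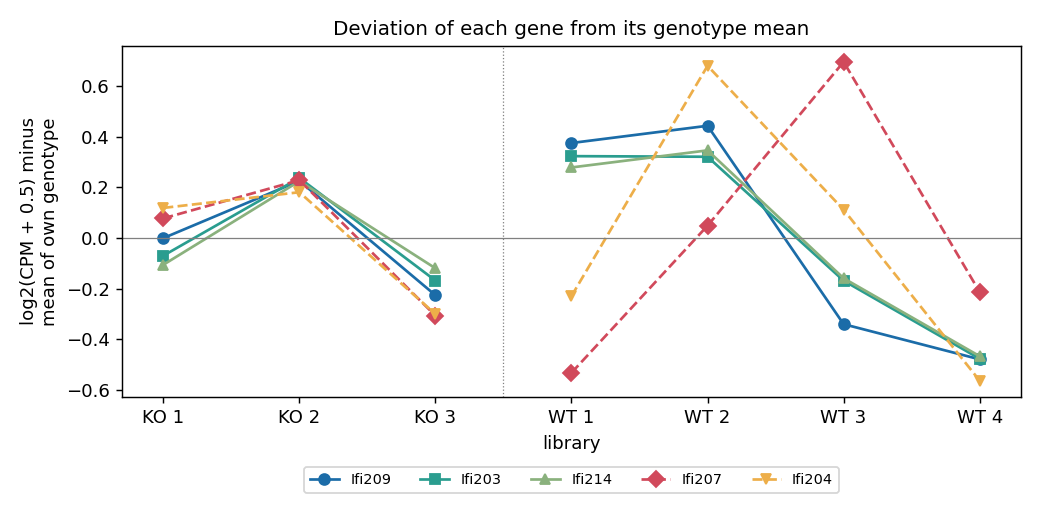
Deviation of log2(CPM + 0.5) from the mean of the gene's own genotype (vertical axis) in each library, Batf KO left of the dotted line and WT right of it, with a line for each gene. The 5 lines run together in Batf KO, while in WT Ifi207 is lowest in replicate 1 (-0.53) and highest in replicate 3 (0.70), where Ifi209 is at -0.34.

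The members varied more between mice than most fitted genes of the table. Each of those genes had passed the authors' threshold, which favours a small spread within a genotype. The SD of log2(CPM + 0.5) ran from 0.19 (Ifi214) to 0.28 (Ifi207) in Batf KO, where the median of the fitted genes was 0.12, and from 0.38 (Ifi214) to 0.53 (Ifi204) in WT, where the median was 0.15. In WT each of the 5 lay above the ninetieth percentile of the fitted genes (90.4 for Ifi214 to 96.7 for Ifi204), and in Batf KO they lay at the percentiles 74.2 (Ifi214) to 87.6 (Ifi207). A wide WT range was not particular to the members. Among the antiviral genes described below, Ifitm3 ran from 18.7 to 75.4 CPM in WT and Oasl2 from 15.7 to 55.1 CPM. Ifi35 had a narrower WT range, from 136 to 193 CPM. The geometric mean over the 5 genes was 59.7, 69.5 and 50.7 CPM in Batf KO replicates 1 to 3, against 34.3, 43.9, 34.4 and 24.2 CPM in WT replicates 1 to 4.

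Per kilobase of annotated exon the order of the levels was the same in all 7 libraries, namely Ifi209, Ifi203, Ifi214, Ifi207 and Ifi204. Ifi209 averaged 87.2 CPM per kb in Batf KO and 49.5 in WT, and Ifi203 27.4 in Batf KO and 18.5 in WT. Ifi214 averaged 11.3 CPM per kb in Batf KO and 7.78 in WT, Ifi207 6.53 and 3.91, and Ifi204 1.88 and 0.80. The ranges of neighbours in this order did not overlap in Batf KO. In WT those of Ifi214 (5.47 to 9.66) and Ifi207 (2.52 to 6.10) did.

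The genes of the cluster are related in sequence, and neither the labels nor the headers say how reads that fit several genes were counted. Of the distinct 50-base runs in annotated transcripts, Ifi209 shared 33.4% with Ifi214, and the same 1182 runs are 14.5% of those of Ifi214. Ifi204 shared 14.8% with Ifi211 and 5.44% with Mndal, and Ifi203 shared 8.85% with the pseudogene Ifi203-ps and 3.34% with Mndal. Ifi207 shared 7.29% with the other genes combined. With all other genes combined, the shares were 33.7% for Ifi209, 14.6% for Ifi214, 20.0% for Ifi204 and 12.4% for Ifi203. These are shares of sequence and do not bound the error of a level, and the part of shared reads in the levels of the 5 genes was not tested.

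The annotation held 14 genes of the PYHIN list, the pseudogene included, and the 5 members were the only ones in the table, or 35.7% of the list. Of the 19734 genes the authors tested, 3.81% were in the table. The members were taken from the rows of the table, so these shares are no test of enrichment. How many of the 14 were among the tested genes is not known. The other 9, Aim2, Ifi202b, Ifi203-ps, Ifi205, Ifi206, Ifi208, Ifi211, Ifi213 and Mndal, were not analysed here. Genes around the family in the interferon pathway were read from lists chosen with earlier results of these data known. Counts from these lists are descriptions. Beside them, 1.95% of the 19734 genes were listed as higher. On the scale of all 19734 genes, 0.679% were called higher in edgeR and 1.28% in DESeq2.

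Interferon ligand genes were represented by 2 of 20 in the table, both higher in Batf KO and both carried by few reads. Ifna4 was at 1.80 ± 0.48 CPM in Batf KO (SD, n = 3) and 0.87 ± 0.31 CPM in WT (SD, n = 4), and Ifna1 was at 0.81 ± 0.27 CPM in Batf KO and 0.32 ± 0.13 CPM in WT. Interferon alpha genes are close copies, so reads of one may have been counted for another. Over the 19734 genes Ifna4 had an adjusted p of 0.330 in edgeR, and Ifna1, below the filter of a mean of 1 CPM, was not fitted.

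Of 9 receptor and kinase genes, 3 were in the table and all were higher in Batf KO. Over the 19734 genes 0 passed in edgeR and 1 in DESeq2. All 3 had an unadjusted edgeR p under 0.05, as had each fitted gene that was higher. Ifnar1 was at 80.7, 89.9 and 84.3 CPM in Batf KO replicates 1 to 3, against 66.6, 62.5, 61.9 and 73.3 CPM in WT replicates 1 to 4. Ifnar2 averaged 51.4 ± 1.66 CPM in Batf KO (SD, n = 3) and 39.9 ± 4.64 CPM in WT (SD, n = 4). The third was Ifnlr1, a receptor chain for interferon lambda, with a log2 fold change of 0.61. Both Ifnar genes had their highest WT level in replicate 4 (73.3 and 46.6 CPM), the library in which 4 of the 5 members were lowest.

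Of 11 interferon-related transcription factor genes, 3 were in the table, and all 3 rose and passed over the 19734 genes in edgeR. Irf4 had a log2 fold change of 1.12 (adjusted p = 0.000664), Irf8 0.60 (adjusted p = 0.0446) and Irf5 0.41 (adjusted p = 0.0178). Of 9 genes listed as brakes on the response, 4 were in the table. Socs3, an inhibitor of JAK signalling, was higher (log2 fold change 0.81, edgeR adjusted p = 0.00710) and Trim24 was lower (-0.50, adjusted p = 0.0144). Usp18 and Isg15, both interferon targets themselves, had a log2 fold change of 0.64 each and did not pass over the 19734 genes (edgeR adjusted p = 0.847 and 0.599).

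Of 50 antiviral target genes, 12 were in the table, all higher in Batf KO, where 1.95% of the 19734 genes were listed as higher. The median log2 fold change of the 12 was 1.16, beside 0.73 for the 5 members. Of these 12, 11 were fitted and 0 passed over the 19734 genes in edgeR (lowest adjusted p 0.0557, for Ifit3b). DESeq2 passed 4, where 1.28% of the 19734 genes were called higher. All 11 had an unadjusted edgeR p under 0.05, as had each fitted gene that was higher. Beside Ifit3b (log2 fold change 1.57), the largest were Oas1g (1.73, from the authors' deposited table), an enzyme that activates RNase L and was carried by few reads, Ifit3 (1.52) and Rsad2 (1.42), which encodes viperin. The 12 antiviral genes had a geometric mean of 46.2, 48.1 and 45.4 CPM in Batf KO replicates 1 to 3, against 22.1, 34.6, 19.2 and 12.3 CPM in WT replicates 1 to 4. Here WT replicate 2 stood highest and replicate 4 lowest, as for Ifi209, Ifi214 and Ifi204, and the whole WT order was that of Ifi209 and Ifi214. The geometric mean hides genes that ran in different orders among the Batf KO libraries, where the highest exceeded the lowest by 1.16-fold to 3.16-fold in single antiviral genes, and by more than in any cluster gene in 7 of the 12.

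No gene of the 17 interferon gamma GTPases and none of the 16 DNA sensing genes, Cgas and Tbk1 among them, were in the table. Of 15 inflammasome genes, Casp4 (log2 fold change 0.47) and Il1b (0.69) were in the table, and of 14 TLR4 pathway genes Ticam1 (0.36), the adaptor through which TLR4 induces interferon. Ticam1 passed over the 19734 genes in edgeR (adjusted p = 0.0446), and Casp4 and Il1b did not (adjusted p = 0.134 and 0.146), while DESeq2 passed both Casp4 and Il1b.

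The genes whose deviations from their genotype means were most like those of the mean over the members, among 662 other fitted genes, were Ifit2 (Pearson r = 0.99 over 7 libraries), Carmil1, Ifit3, Furin, Jaml, Ifit3b, Atf3, Plxnd1, A530040E14Rik and Mybl2 (r = 0.95). Ifit2, an interferon-induced inhibitor of translation, had 61.0, 80.6 and 42.4 CPM in Batf KO replicates 1 to 3, against 33.2, 46.0, 32.4 and 17.4 CPM in WT replicates 1 to 4. It repeats the Batf KO order of the cluster, and in WT it is high in replicate 2 and low in replicate 4. The 10 genes were picked for this likeness, so a shared order of libraries follows from the choice. Of the 10, 3 are Ifit genes of chromosome 19. Each of the 10 had a positive log2 fold change, from 0.42 (Mybl2) to 1.57 (Ifit3b), as had 50.8% of the 667 fitted genes. An r over 0.9 was found for 21 of the 662 genes. The mean over the members hides Ifi207, whose own r with it was 0.35.

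**Figure D5:**
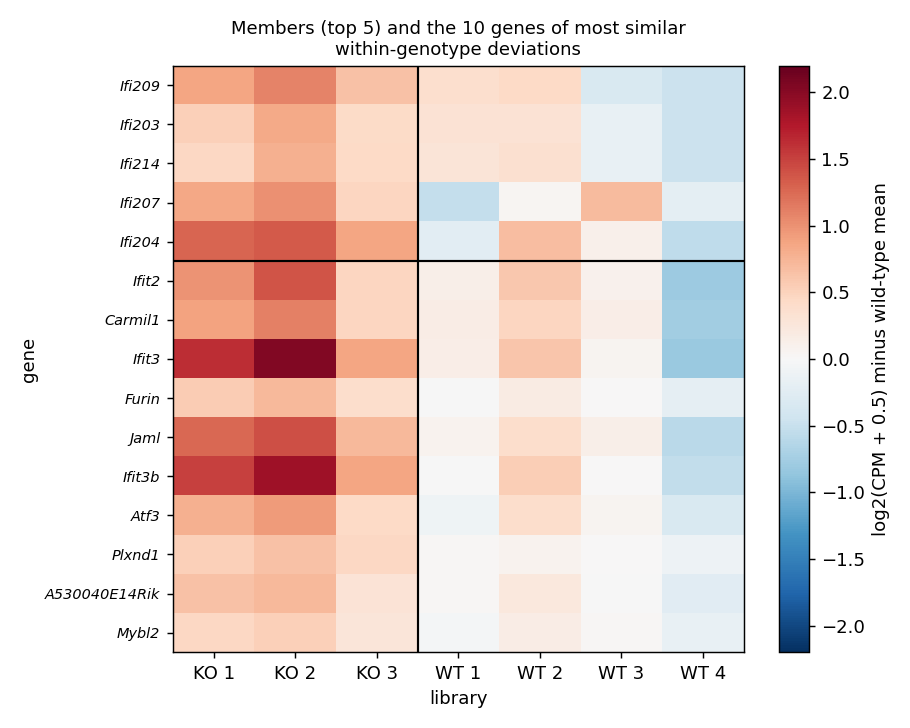
Log2(CPM + 0.5) minus the WT mean of each gene (colour) in each library, Batf KO left and WT right of the vertical line, with the 5 members above the horizontal line and the 10 most similar genes below it. WT replicate 4 has the lowest WT value for all 10, which were chosen for their likeness to the mean of the members. Ifi207 differs from them in WT replicates 1 and 3.

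Few markers of other spleen cells were in the table. Of 25 myeloid markers only Zbtb46 was present, at 73.6 to 89.6 CPM in Batf KO and 47.4 to 65.6 CPM in WT, and of 9 markers of plasmacytoid dendritic cells, which are strong producers of interferon, only Ly6d, which B cells also express, at 240 to 296 CPM in Batf KO and 177 to 227 CPM in WT. Of 21 T and NK markers 2 were present, with a summed level of 5.70 to 7.88 CPM in Batf KO and 2.81 to 12.6 CPM in WT. Cd8b1 was higher in Batf KO (log2 fold change 1.65), and Tbx21 had -3.55, with 10.1 CPM in WT replicate 2. Of 13 erythroid and platelet markers only Pf4 was present, at 0.76 to 1.04 CPM in Batf KO and 0.28 to 0.63 CPM in WT. None of 11 stromal markers was in the table. Of 13 B cell markers, Ms4a1, Blk and Ly6d were present and their summed level was 1239 to 1260 CPM in Batf KO and 784 to 914 CPM in WT. The other markers of these lists, defining ones included, were not analysed here, and the part of other cells in the results was not tested.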

How the data were processed

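Total RNA of 7 samples, 3 Batf KO and 4 WT by the genotype label, was sequenced as paired-end libraries, per the labels' protocols. TopHat2 2.0.6, edgeR 3.03, HTSeq 0.5.3p7 and the build mm10 are listed in the submitters' processing notes, with no role. The labels give neither the annotation nor the strand setting. The design text speaks of 2 replicates per sample, which it does not explain, and each deposited library was counted as 1 sample. Per the file headers, the deposited table holds whole read counts and CPM per gene and library, and the authors' own log2 fold change, likelihood ratio (a score), p-value and FDR. From each FDR, its rank and the p-value, the authors' adjustment covered 19734 genes, of which the table holds 752, with FDR up to 0.0499.

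Effective library sizes were recovered as count over CPM. In edgeR 4.0.16 (R 4.3.3), a quasi-likelihood test was run on the counts with these sizes, over the 667 genes with a mean of at least 1 CPM, Benjamini-Hochberg adjusted, and again over 19734 genes. The SE is the log2 fold change over the square root of F. Differences between members were tested by exact permutation over 35 splits (scipy 1.17.1). Alternatives were DESeq2 1.42.0, limma 3.58.1, TMM, other filters and pseudocounts, each library left out, and, chosen after seeing the data, each WT pair. The edgeR step was tested on simulated data of fixed dispersion and without selection of genes, which checks the code and not the calls of the members. Geometric means of the antiviral list add 0.01 CPM to each value. Positions come from GENCODE M21.

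The design text counts as many spleens as libraries in each genotype, and p-values measure the spread between these 7 libraries. The members and the gene lists were chosen with earlier results of these data known. Named are the 5 members, listed PYHIN genes, up to 4 genes of each list by size of change, Batf, genes within 500 kb, and the 10 genes of highest r with the members.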

Additional observations from a re-analysis of the deposited data

Results flagged for a closer look

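Among 40 sets of WT values screened, 1 held a library that stood apart from the other 3 by Dixon's test at the 95% level, which chance does in about 1 of 20 sets. None of the 5 members was that gene. It was the antiviral gene Rsad2, at 119, 95.3 and 302 CPM in Batf KO replicates 1 to 3, against 139 CPM in WT replicate 2 and 29.7 to 44.6 CPM in the other 3 WT libraries (Dixon ratio 0.864). WT replicate 2 was also the highest WT library for Ifi204, Ifi209 and Ifi214. The cause was not tested.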

How the results depend on the processing

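Under every alternative run, each of the 5 members kept a positive log2 fold change. Of 84 values of single members under the alternatives, 68 stayed on the same side of the threshold and 16 no longer passed it. The count of 5 members called was 0 over the 19734 genes and 3 with WT replicates 1 and 2 alone, and it ran from 2 to 5 with a library left out. It was 2 without Batf KO replicate 2, where Ifi204 and Ifi209 still passed, and 3 without WT replicate 3, where Ifi203 (adjusted p = 0.0503, edgeR) and Ifi214 (0.0544) did not. Ifi207 lost its call without Batf KO replicate 1 or 2 or WT replicate 1 or 4, with log2 fold changes of 0.57 to 1.04 over all libraries left out. With a mean of at least 5 CPM, Ifi204 was not fitted and the other 4 passed. The number of member pairs that differ was 0 also with pseudocounts of 0.1 and 2 CPM, which says nothing of stability, since 6 pairs at the smallest possible p are needed for any to pass. The size of the differences of Ifi204 did depend on the pseudocount. With Ifi214 it was 0.72 at 0.1 CPM and 0.32 at 2 CPM, and with Ifi209 it was 0.42 and 0.01. Leaving out a library there allows no exact permutation p below 0.0667, so only the differences were recomputed, and those of Ifi207 with Ifi203, Ifi209 and Ifi214 each changed sign once. The median SD of the members stayed within 1.5 times under each alternative. The cause of these changes was not tested. No paired analysis was made, because the labels give no pairing and do not say what the numbers in the sample titles stand for. Depth limits Ifi204, with 41 to 223 reads per library.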
